A study of Mus musculus with 18 samples.

Results

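Expression of 10 transcription factors that establish and hold T-cell identity was followed in mouse T-cell acute lymphoblastic leukemia (T-ALL), a cancer of immature T cells: Tcf7, Lef1, Bcl11b, Gata3, Runx1, Ikzf1, Tcf3, Tcf12, Myb and Ets1. The members were chosen by gene symbol, and all 10 were found among the 18329 genes of the acute table and the 18953 genes of the survival table. RNA from leukemic spleens of C57BL/6 mice was sequenced in 18 libraries, and every group, controls included, carried T-ALL cells with a conditional allele of Acly transplanted into irradiated hosts. The acute arm held KO acute (n = 4 libraries) and WT acute (n = 4 libraries). Its mice were overtly leukemic when they received tamoxifen at 3 mg per mouse in corn oil (KO) or corn oil alone (WT). Spleens were taken 48 h later. The survival arm held WT survival (n = 4 libraries) and 2 KO groups, KO survival first wave (n = 3 libraries) and KO survival second wave (n = 3 libraries). Mice of the survival arm received the same treatments 48 h after transplant and were sampled at the humane endpoint. The sources used here do not give the Cre line that tamoxifen activates, the ages of the mice or what sets the waves apart. Nor do they say whether each library is a different mouse, or whether 1 primary leukemia was used for all. Deletion of Acly and exposure to tamoxifen therefore cannot be told apart, and the p-values measure only the spread between these libraries, which may be technical.

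T-cell development in the thymus is driven by Notch signals that switch on Tcf7 (which encodes TCF-1) and Gata3, followed by Bcl11b, which closes off other blood lineages. These factors work with Lef1, a close relative of TCF-1 that binds the same DNA motif, with Runx1 and its partner CBFβ, with the E proteins encoded by Tcf3 and Tcf12, which the Id proteins hold inactive, and with Ikaros (Ikzf1), Myb and Ets1. In T-ALL several of these genes are known as drivers, as tumor suppressors lost by mutation, or as parts of the circuit that keeps the leukemia cells growing.

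Acly, the targeted gene, was at 1256 ± 122 in WT acute and 733 ± 85.1 in KO acute libraries (normalized counts, SD, n = 4 each). It was 1697 ± 154 in WT survival (n = 4), 727 ± 71.8 in the first wave (n = 3) and 576 ± 75.3 in the second (n = 3), with each KO group below its WT group without overlap. Acly passed in the acute comparison (log2 fold change -0.78, limma adjusted p = 0.00266) and in the second wave (-1.56, adjusted p = 0.00155). In the first wave it did not pass (-1.22, adjusted p = 0.0562), and it passed there in 5 of 22 alternative analyses. The reads assigned to genes in a library, estimated from the step between its low values, were 6.09 to 12.7 M, and the normalized totals were 7.07 to 10.4 M. Only 38.1% to 63.6% of the low values were whole multiples of that step, so this estimate is rough. Of the pan-T marker list all 8 genes were detected in each of the 5 groups, and their sum was 0.204 to 0.285% of a library, led by Lck. B-cell markers summed to 0.00253 to 0.0171%, neutrophil markers to 0.00186 to 0.0630%, macrophage markers to 0.00535 to 0.0240% and erythroid markers to 0.0718 to 0.442%. NK-cell markers (0.00346 to 0.00921%), dendritic-cell markers (0.00192 to 0.00380%), platelet markers (0.000320 to 0.00174%, with Gp9 at 0 in WT acute) and markers of stroma and endothelium (0.0130 to 0.0254%) each summed to less than the pan-T list. The erythroid sum exceeded the pan-T sum in some survival libraries, among them second-wave library 1 (0.442% against 0.237%). The erythroid list was led in 4 of 5 groups by Tfrc, which dividing cells of other types also express, and in WT survival by Hbb-bs. Pairs of libraries stood apart in each table. KO acute libraries 1 and 2 had 4.80% and 5.27% of their normalized counts in mitochondrially encoded genes, against 2.35% and 2.70% in KO acute libraries 3 and 4 and 3.50 to 3.69% in WT acute. WT survival libraries 1 and 2 had neutrophil sums of 0.0160% and 0.00949%, against at most 0.00308% in the other 8 survival libraries, and pan-T sums of 0.204% and 0.219%, the 2 lowest of that table. Values without these libraries are given beside the comparisons below.

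All 10 genes were expressed in every library, and 8 of them ranked at or above the 97.4th percentile of the genes tested by mean normalized count. Tcf3 ranked at the 86.6th percentile of the acute and the 89.2nd of the survival table, and Gata3 at the 76.0th and 75.6th. Levels were set against each other per kb of mean coding-transcript length. On that scale Tcf7 was first in each of the 5 groups, from 4894 normalized counts per kb in KO acute to 10425 in the first wave. In WT acute it was 8994, which was 8823 to 9201 over the 4 libraries and apart from Ets1, the next, at 4437. Ets1, Tcf12, Lef1 and Ikzf1 followed at 3030 to 4437 per kb, and neighbours in that order overlapped in their ranges. Myb (2376), Runx1 (1838) and Bcl11b (1651) formed the next step, again with overlapping neighbours. Tcf3, at 395 per kb, stood below Bcl11b and above Gata3, at 245, without overlap. KO acute kept the same order, but there the ranges of Tcf7 (4894) and Ets1 (4389) overlapped, as did those of Tcf3 (361) and Gata3 (280). In the survival groups Tcf7 was again the highest, Tcf3 and Gata3 were the lowest, and Tcf7 and Ets1 overlapped in WT survival only. The order in between depends on the length used: per kb of the longest coding transcript, Tcf7 was at 7667 in WT acute and Lef1, at 3048, was next.

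**Figure D1:**
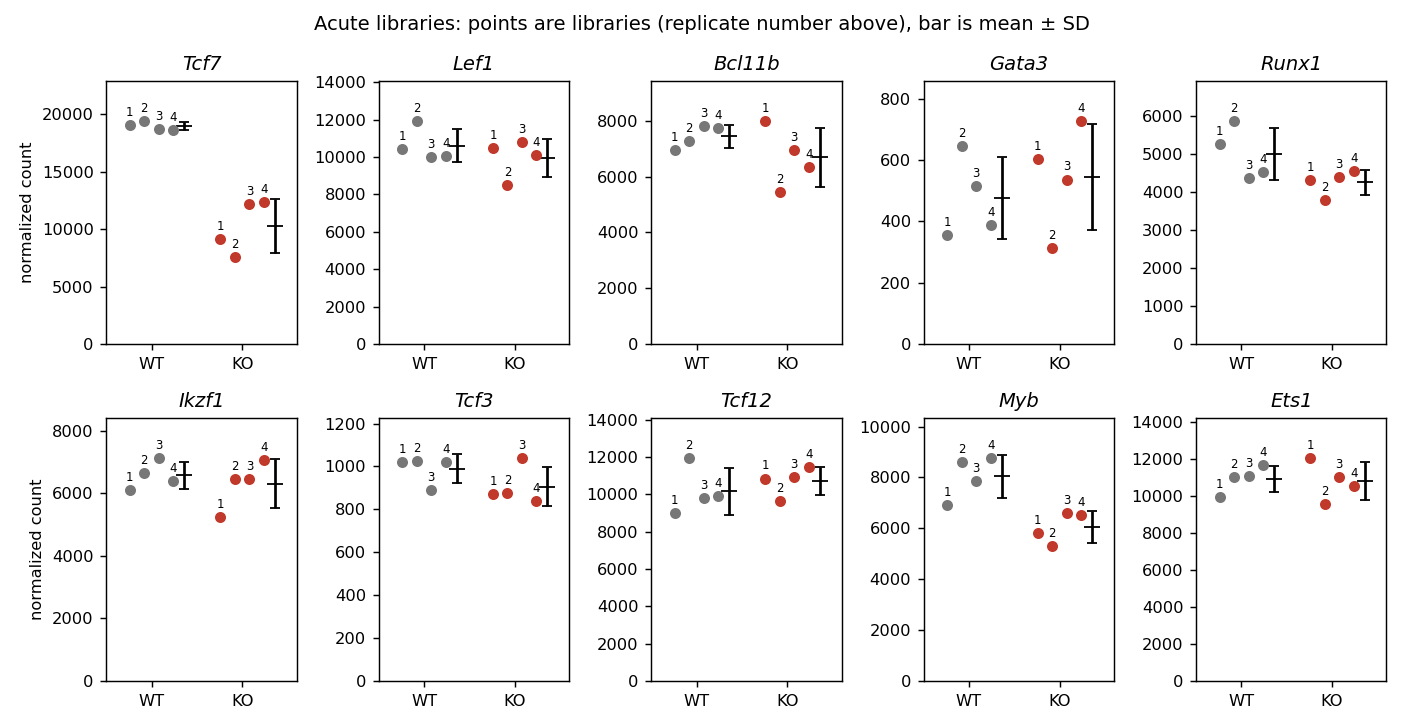
Normalized counts of the 10 genes in the 8 acute libraries, with WT in grey and KO in red, the replicate number above each point, and the mean ± SD as a bar; each panel's vertical axis starts at 0. For Tcf7 and Myb every KO point lies below every WT point, and for the other 8 genes the groups overlap.

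The acute comparison addresses what changed within 48 h of treatment in established leukemia. Tcf7 fell to 54.4% of its WT level and Myb to 75.4%, and none of the 10 rose. The other 8 genes had log2 fold changes of -0.22 (Runx1) to 0.17 (Gata3) that did not pass the test (limma adjusted p = 0.212 to 0.924). The 2 of 10 genes called compare with 12.6% of all 14184 genes tested (4.58% higher and 8.07% lower). The groups did not overlap for 2 of the 10, both lower in KO, against 19.0% of all genes (11.0% lower in KO). The median log2 fold change was -0.11 for the 10 genes and 0.03 for all genes tested.

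Tcf7 (chr11:52252371-52283014, minus strand, GRCm38), whose product TCF-1 is among the earliest T-lineage factors, showed the largest difference. It was 19086, 19381, 18732 and 18585 normalized counts in WT acute libraries 1 to 4. In KO acute libraries 1 to 4 it was 9138, 7561, 12187 and 12347. The WT libraries lay within a narrow band, the KO libraries were all far below it, and KO libraries 1 and 2 were the lowest of the 8. The means were 18946 ± 358 and 10308 ± 2353 (SD, n = 4 each), a log2 fold change of -0.91 (SE 0.14, 95% interval -1.20 to -0.62, limma adjusted p = 0.00158). Among the 162 genes with a mean of at least 5000 in the tested set, Tcf7 had the 9th lowest log2 fold change. Over all 14184 genes tested it ranked 675 from the lowest. It passed in 19 of 19 alternative analyses, with -0.63 the value nearest to 0 (adjusted p = 0.000869 to 0.040). Without KO acute libraries 1 and 2 it was -0.63 (adjusted p = 0.000869). In RNA of a whole spleen, fewer cells of a type and less RNA per cell cannot be told apart. The pan-T markers had a median of -0.15, with 7 of 8 negative and 1 called, and Tcf7 was at -0.78 (adjusted p = 0.00449) after the libraries were scaled to the mean log2 level of those markers. Neutrophil markers were positive in 11 of 11 genes tested (2 called, median 0.74), with sums of 0.0206 to 0.0630% in KO and 0.00998 to 0.0215% in WT acute. Erythroid markers were negative in 10 of 10 (2 called, median -0.79), with sums of 0.0718 to 0.200% in KO and 0.127 to 0.211% in WT. B-cell markers were positive in 9 of 9 (0 called, median 0.93), with sums of 0.00632 to 0.0171% in KO and 0.00447 to 0.0102% in WT, and dendritic-cell markers had sums of 0.00281 to 0.00327% in KO and 0.00202 to 0.00269% in WT (0 of 5 called, median 0.77). Markers of stroma and endothelium were positive in 3 of 3 (1 called, median 0.52), with sums of 0.0197 to 0.0217% in KO above 0.0130 to 0.0154% in WT without overlap. The part of these cells in the result was not tested.

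Lef1 (chr3:131110471-131224356, plus strand), the relative of TCF-1, had no such difference. It was 10449.5, 11917, 10019 and 10065 in WT acute libraries 1 to 4. In KO acute libraries 1 to 4 it was 10479.5, 8492, 10779.9 and 10108. KO libraries 1, 3 and 4 lay inside the WT range and KO library 2 lay below it, for a log2 fold change of -0.09 (SE 0.10, 95% interval -0.31 to 0.12, limma adjusted p = 0.583). The ratio of Lef1 to Tcf7 within a library, which no size factor can change, was 0.548, 0.615, 0.535 and 0.542 in WT acute libraries 1 to 4. In KO acute libraries 1 to 4 it was 1.15, 1.12, 0.885 and 0.819, so that every KO ratio exceeded every WT ratio. The mean ratio was 0.993 ± 0.166 in KO and 0.560 ± 0.0371 in WT (SD, n = 4 each), a difference of 0.81 on the log2 scale or 1.76-fold. The exact two-sided permutation p was 0.0286, the smallest that 4 against 4 allows, and 0.0429 after Benjamini-Hochberg adjustment over the 3 ratios of the acute table. Without KO acute libraries 1 and 2 the log2 difference was 0.61, in a design of 2 against 4 that cannot reach the threshold.

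Myb (chr10:21124935-21160984, minus strand), a factor of blood progenitors and thymocytes that acts as an oncogene in T-ALL, was the other gene that fell. It was 6914, 8606, 7873 and 8768 in WT acute libraries 1 to 4. In KO acute libraries 1 to 4 it was 5805, 5287, 6610.4 and 6536. The groups did not overlap, but WT library 1 and KO libraries 3 and 4 were close. This gave a log2 fold change of -0.41 (SE 0.11, limma adjusted p = 0.0253), and 55 of the 162 genes with a mean of at least 5000, Myb included, were at or below it. This call held in 8 of 19 alternative analyses (adjusted p = 0.0158 to 0.545). It was lost with quantile normalization (-0.09, adjusted p = 0.545), with scaling to the pan-T markers (-0.29, adjusted p = 0.175) and after removal of a trend over GC content, length and abundance (-0.22, adjusted p = 0.169). It was also lost without KO acute libraries 1 and 2 (-0.28, adjusted p = 0.132) and without WT acute library 2, 3 or 4 or KO acute library 1 or 2 alone (adjusted p = 0.0535 to 0.0835).

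RefSeq promoter entries for build GRCm38.p6 were found for 9 of the 10 genes, and the 250 bases before the start were searched for 7 motifs on both strands. Of these 9 windows, 3 held no exon of GENCODE M21, those of Tcf7, Myb and Ikzf1. The windows are placed by the RefSeq start, and where transcription began in these cells was not measured. The Tcf7 window reads without a stop codon for 55 codons from an ATG at -165, so that part may be coding rather than promoter DNA. It is given by its values only. The Myb window has no stop codon for 32 codons from an ATG at -96, and whether any window is translated was not tested. The windows of Myb, which fell, and Ikzf1, which did not pass, are shown here, each before its RefSeq start. The Myb window lies before the annotated gene. The Ikzf1 window lies inside the annotated gene, which begins at 11685003, without overlapping an exon, so the windows are not alike in place. Capitals mark CpG.
Myb, chr10:21160985-21161234, minus strand: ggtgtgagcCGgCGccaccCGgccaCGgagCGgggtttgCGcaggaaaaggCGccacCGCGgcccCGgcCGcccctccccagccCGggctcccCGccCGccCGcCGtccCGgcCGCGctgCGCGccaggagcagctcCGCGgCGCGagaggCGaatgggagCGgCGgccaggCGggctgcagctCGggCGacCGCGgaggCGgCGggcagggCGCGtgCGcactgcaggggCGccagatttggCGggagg
Ikzf1, chr11:11685675-11685924, plus strand: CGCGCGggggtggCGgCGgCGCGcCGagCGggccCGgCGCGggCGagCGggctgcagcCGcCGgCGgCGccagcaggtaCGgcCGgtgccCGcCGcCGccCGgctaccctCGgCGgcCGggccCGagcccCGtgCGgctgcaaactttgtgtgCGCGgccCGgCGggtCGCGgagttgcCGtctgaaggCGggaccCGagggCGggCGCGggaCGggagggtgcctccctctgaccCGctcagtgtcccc
The Myb window had a GC content of 81.2% and 40 CpG, and the Ikzf1 window a GC content of 82.0% and 44 CpG, against a median of 6 CpG over 27025 windows of all genes. The Tcf7 window had a GC content of 76.0%, 37 CpG and 1 match to the E-box letters, at -159, inside the stretch without a stop codon. Neither of the printed windows held any of the motifs: CTTTGA of the TCF/LEF family (in 14.1% of all windows), TGTGGT of the RUNX family (14.2%), AGATAA of the zinc-finger GATA family (10.2%), AACTG of the MYB family (39.1%), CCGGAA of the ETS family (12.3%), TGGGAA of Ikaros (21.5%) and CAGNTG of the E-box (44.5%), which can share bases with the MYB letters. Among the other 7 windows, the TCF/LEF letters were found once, in the Bcl11b window. The MYB letters were in the windows of Bcl11b, Gata3 and Runx1, the ETS letters in those of Gata3 and Tcf3, and the E-box letters in those of Tcf7, Runx1 and Tcf12. An exon of Bcl11b itself covers 188 bases of its window, and an exon of Gm13256 covers all 250 of the Gata3 window. These are letter matches, and binding was not measured.

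The zinc-finger factors showed no difference beyond the spread. Bcl11b (chr12:107910403-108003602, minus strand), which locks in T-cell commitment, was 6945, 7279, 7814 and 7734 in WT and 7985, 5448, 6959 and 6359 in KO acute libraries 1 to 4. KO library 1 was the highest and KO library 2 the lowest of all 8, for a log2 fold change of -0.17 (SE 0.11, limma adjusted p = 0.364). Gata3 (chr2:9857078-9890034, minus strand), needed from the first steps of T-cell development, was 357, 647, 515 and 388 in WT and 604, 314, 537 and 727 in KO. KO libraries 2 and 4 were the lowest and the highest of all 8, with a log2 fold change of 0.17 (SE 0.25, limma adjusted p = 0.701). Ikzf1 (chr11:11685003-11772926, plus strand), which encodes Ikaros, a repressor often lost in lymphoid leukemia, was 6101, 6658, 7127 and 6379.6 in WT and 5228, 6462, 6460.1 and 7072 in KO. Its groups overlapped almost fully apart from a low KO library 1, at a log2 fold change of -0.06 (SE 0.11, limma adjusted p = 0.733).

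Runx1 (chr16:92601466-92826149, minus strand), the DNA-binding subunit of core-binding factor, was 5262, 5876, 4378 and 4536 in WT and 4338, 3798, 4396 and 4559 in KO acute libraries 1 to 4. KO libraries 1, 3 and 4 sat at the level of the 2 lower WT libraries, KO library 2 was the lowest, for a log2 fold change of -0.22 (SE 0.11, limma adjusted p = 0.212). Its partner Cbfb, which encodes CBFβ and steadies RUNX proteins on DNA, did fall. Cbfb was 1986, 1897, 1735 and 1832 in WT and 1016, 971, 1201 and 1115 in KO. Every KO library was well below every WT library, with means of 1862 ± 106 and 1076 ± 103 (SD, n = 4 each) and a log2 fold change of -0.79 (SE 0.11, limma adjusted p = 0.00122). It passed in 19 of 19 alternatives, at -0.85 to -0.59.

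Ets1 (chr9:32636221-32757820, plus strand), an ETS-family activator of T-cell genes, was 9919.8, 11014, 11074 and 11651 in WT and 12061, 9566, 11006 and 10559 in KO. All WT libraries lay inside the KO range, for a log2 fold change of -0.02 (SE 0.09, 95% interval -0.22 to 0.19, limma adjusted p = 0.924). Its relative Fli1, another ETS factor of blood cells, fell. Fli1 was 1511, 1488, 1405 and 1615 in WT and 687, 642, 916 and 942 in KO, with no overlap, a log2 fold change of -0.94 (SE 0.14, limma adjusted p = 0.00171) and a call in 19 of 19 alternatives.

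The E proteins form dimers that switch on T-cell receptor gene rearrangement. Tcf3 (chr10:80409514-80433647, minus strand), which encodes E2A, was 1022, 1027, 891 and 1019 in WT and 869.7, 874, 1039.8 and 837 in KO acute libraries 1 to 4. WT library 3 lay below its group and KO library 3 above, so the groups overlapped, for a log2 fold change of -0.13 (SE 0.12, limma adjusted p = 0.516). Tcf12 (chr9:71842688-72111871, minus strand), which encodes HEB, was 8981, 11954, 9781 and 9923 in WT and 10848, 9642, 10923 and 11440.1 in KO. The KO libraries lay inside the WT range, for a log2 fold change of 0.08 (SE 0.10, limma adjusted p = 0.643). The ratio of Tcf12 to Tcf3 was 11.9 ± 1.43 in KO and 10.3 ± 1.27 in WT (SD, n = 4 each), which overlapped (exact two-sided permutation p = 0.143).

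Id2, which encodes an inhibitor of E proteins, fell, while Tcf3 and Tcf12 did not pass the test. It was 589.9, 663, 696 and 678 in WT and 462, 407, 330.1 and 345 in KO acute libraries 1 to 4, with no overlap and a log2 fold change of -0.77 (SE 0.15, limma adjusted p = 0.00539). It passed in 17 of 19 alternatives and was lost where the length, GC and abundance trend was removed (-0.52, adjusted p = 0.0610, and 0.100 with the replicate block). The sum of Id1, Id2 and Id3 divided by the sum of Tcf3 and Tcf12 was 0.0753, 0.0658, 0.0777 and 0.0819 in WT libraries. It was 0.0544, 0.056, 0.0398 and 0.0365 in KO libraries, each below every WT library and lowest in libraries 3 and 4. The log2 difference was -0.71, or 0.612-fold, with an exact two-sided permutation p of 0.0286, again the smallest possible, and 0.0429 adjusted over the 3 ratios. Without KO acute libraries 1 and 2 the difference was -0.98, with no test that could pass.

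**Figure D2:**
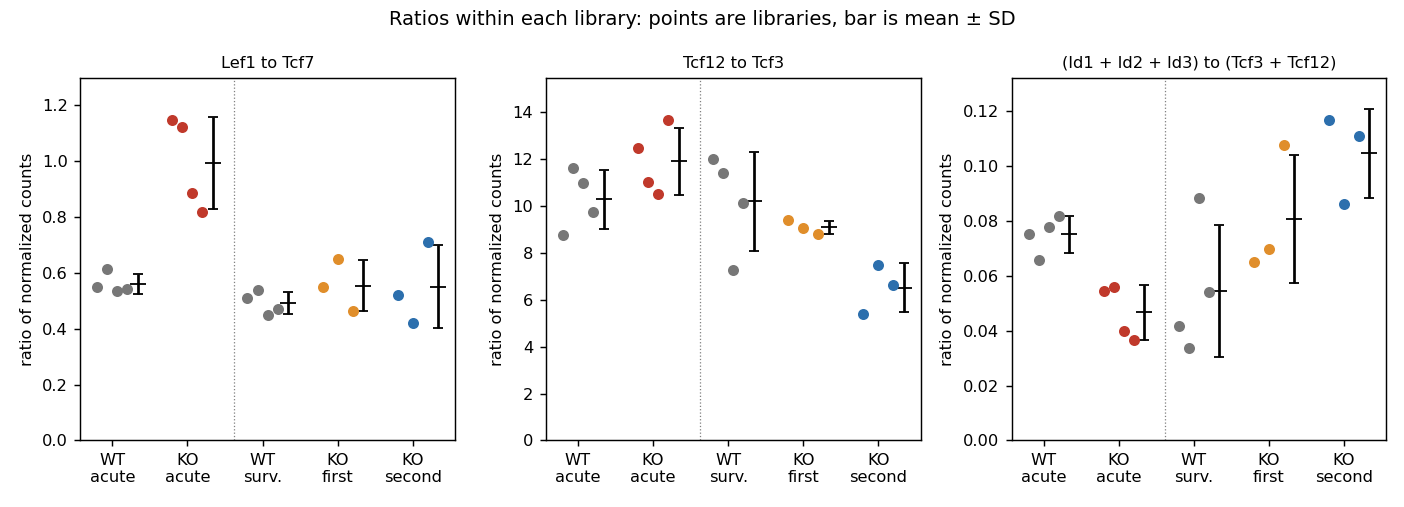
Ratios of normalized counts within each library for the 5 groups, with mean ± SD as bars and axes that start at 0; the dotted line separates the tables, which were normalized separately. In the acute libraries the Lef1 to Tcf7 ratio is higher and the Id to E-protein ratio lower in every KO library than in any WT library.

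How the libraries are scaled set the sign of several small differences. Scaling to the pan-T markers moved the median of all genes from 0.03 to 0.15, and the median of the 10 genes was then 0.01, below that of all genes. The split of called genes was 650 higher and 1144 lower as deposited, 858 and 566 after that scaling, 746 and 832 after quantile normalization, and 635 and 663 with the trend removed. Lef1, Ikzf1 and Ets1 were negative as deposited and positive under all 3 of these scalings, and Bcl11b turned positive under quantile normalization only (0.14). Tcf12 stayed positive and passed under quantile normalization (0.37, limma adjusted p = 0.0265, against 0.0265 to 0.906 over its alternatives). Tcf7 was -0.78, -0.71 and -0.79 under the 3 scalings and passed each time.

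**Figure D3:**
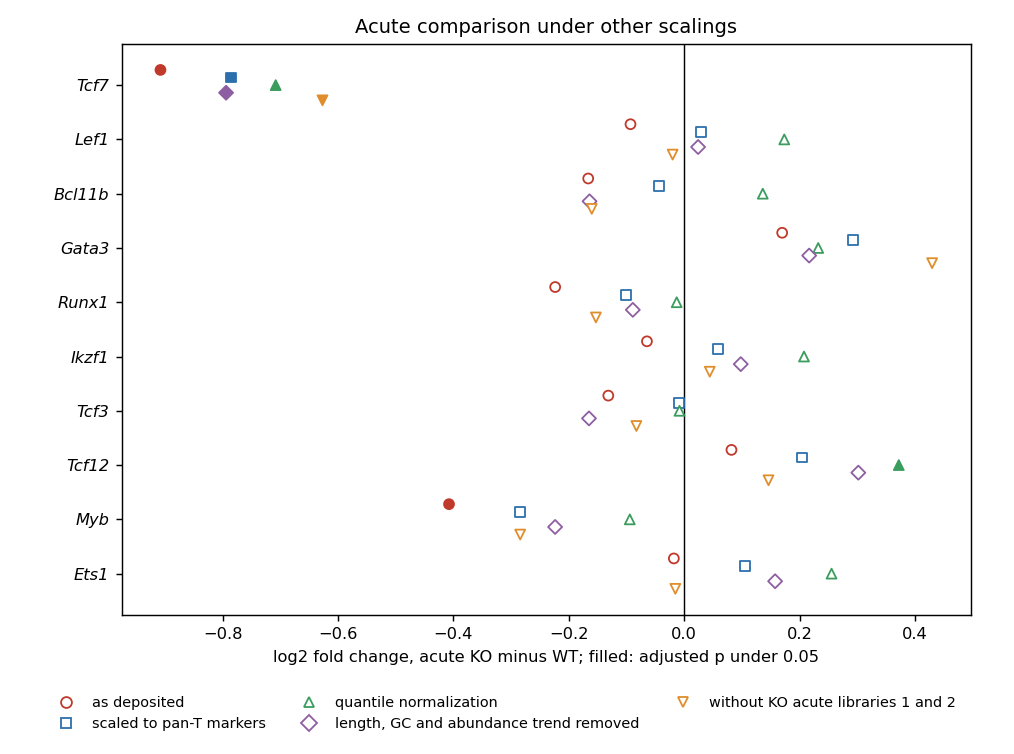
Log2 fold changes (acute KO minus WT) of the 10 genes as deposited, under 3 other scalings and without KO acute libraries 1 and 2; filled marks have a limma adjusted p under 0.05. Tcf7 lies between -0.91 and -0.63 and is filled in all 5, Myb is filled as deposited only, and the signs of Lef1, Bcl11b, Ikzf1 and Ets1 depend on the scaling.

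KO acute library 2 had the lowest value of its group for 8 of the 10 genes and the lowest of all 8 libraries for 7, Tcf3 and Ikzf1 being outside its group lows. Without both KO acute libraries 1 and 2 the 10 genes ranged from -0.63 to 0.43 with a median of -0.05, and Tcf7 was the 1 gene called.

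Lists of related genes were read beside the 12.6% of all genes called (4.58% higher and 8.07% lower). Of 21 tested relatives in the same families, 2 rose and 2 fell. Besides Fli1, Ikzf2, which encodes Helios, fell (-0.27, limma adjusted p = 0.0441), while Mybl2, a cell-cycle member of the MYB family, rose (1.01, adjusted p = 0.0159) and Etv6, an ETS repressor, rose (0.56, adjusted p = 0.0451). The calls of Ikzf2, Etv6 and Mybl2 held in 3, 7 and 16 of 19 alternatives, and all 3 were lost without KO acute libraries 1 and 2 (Mybl2 0.94, adjusted p = 0.0713). Mybl2 was also lost without trend (adjusted p = 0.0583) and without WT acute library 4 (adjusted p = 0.0576). The list's median was 0.05, beside 0.03 for all genes. Of 25 partners and inhibitors, 1 rose and 4 fell, with a median of -0.04. Whether the share called in either list differs from that of all genes was not tested. Besides Cbfb and Id2, Rbbp7 (-0.68, adjusted p = 0.00757) and Rbbp4 (-0.54, adjusted p = 0.0106) fell, histone-binding subunits of the NuRD complex with which BCL11B and Ikaros are found. Chd4, Mta1, Mta2, Hdac1 and Hdac2, listed for the same complex, were not among the genes called, so the list shows no change of the complex as a whole. Rbbp7 passed in 15 and Rbbp4 in 13 of 19 alternatives. With the length, GC and abundance trend removed they were at -0.37 and -0.31 (adjusted p = 0.0897 and 0.0966), and without KO acute libraries 1 and 2 at -0.54 and -0.41 (adjusted p = 0.0509 and 0.0646). The 1 that rose was Bcl9l, a β-catenin cofactor (1.07, adjusted p = 0.0382), named after its value was seen, with a call in 8 of 19 alternatives.

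Of 10 tested T-ALL oncogenic factors, 0 passed by limma at an adjusted p under 0.05, and 2 had an unadjusted p under 0.05. Tal1, an E-protein partner that drives a class of T-ALL, was 249, 339, 325 and 531 in WT and 226, 299, 112 and 138 in KO, which overlapped, with a log2 fold change of -0.95 (SE 0.30, adjusted p = 0.0552). Notch1, a receptor that activating mutations hit in many T-ALLs, was at -0.35 (SE 0.12, adjusted p = 0.0696). Tal1 passed in 4 of 19 alternatives (adjusted p = 0.00966 to 0.172), among them without KO acute libraries 1 and 2 (-1.48), and Notch1 in 2 of 19. KO acute libraries 3 and 4, the lowest for Tal1, also had the lowest erythroid marker sums of the acute libraries (0.0729% and 0.0718%). Those sums were 0.114% and 0.200% in KO acute libraries 1 and 2 and 0.127 to 0.211% in WT acute. The part of erythroid cells in the Tal1 values was not tested.

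Of 24 tested effector genes of the T lineage, which these factors help to control, 4 rose and 6 fell, with a median of 0.04, beside 4.58% of all genes higher and 8.07% lower. Il7r, the interleukin-7 receptor chain, was 1525, 1356, 1736 and 1559 in WT and 472, 694, 752 and 1030.4 in KO, with every KO library below every WT library and a log2 fold change of -1.11 (SE 0.19, limma adjusted p = 0.00308). Cd28, a costimulatory receptor, fell by 0.55 on the log2 scale (adjusted p = 0.0154). Il7r passed in 19 of 19 alternatives and Cd28 in 12, and without KO acute libraries 1 and 2 Cd28 was at -0.39 (adjusted p = 0.0780). Rag1, Rag2 and Dntt, the enzymes that rearrange and diversify T-cell receptor genes, also fell (-0.61, -0.76 and -0.48, adjusted p = 0.0282, 0.020 and 0.0166), and were named after their values were seen. They passed in 9, 12 and 12 of 19 alternatives and not without KO acute libraries 1 and 2 (-0.42, -0.51 and -0.35, adjusted p = 0.148, 0.103 and 0.107). Of 7 tested Wnt feedback genes, which report β-catenin acting through TCF/LEF factors, 0 passed and 0 had an unadjusted p under 0.05. Among them Axin2 was at 0.40 (SE 0.19, adjusted p = 0.200) and Znrf3 at -0.09 (SE 0.23, adjusted p = 0.845).

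**Figure D4:**
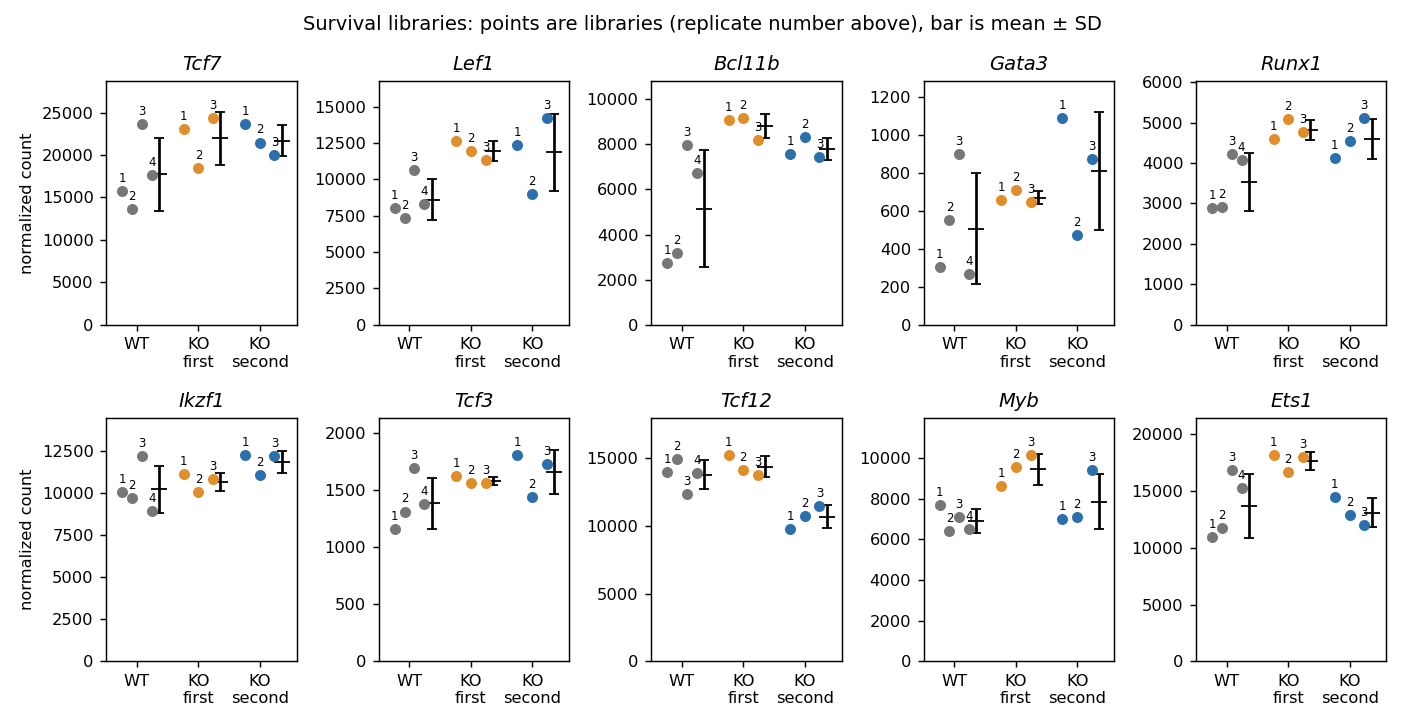
Normalized counts of the 10 genes in the 10 survival libraries, with WT in grey, first-wave KO in orange and second-wave KO in blue, the replicate number above each point, and the mean ± SD as a bar; each axis starts at 0. The first-wave points of Lef1, Bcl11b, Runx1 and Myb lie above all WT points, the second-wave points of Tcf12 lie below all others, and WT libraries 1 and 2 are low for most genes.

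The survival comparisons address how leukemias that grew out after treatment differed at the endpoint, and both waves were set against the same 4 WT libraries. None of the 10 genes passed in any of them by limma at an adjusted p under 0.05, including Tcf7, whose mean was above WT in both waves. In the first wave all 10 values were positive, with a median of 0.42 (all genes 0.01), and 5 had an unadjusted p under 0.05. In that comparison 0 of 14286 genes passed (0% of all genes), 8.02% had an unadjusted p under 0.05, and the other settings of limma called 0 to 3. The first wave did not overlap WT for 4 of the 10 genes, Lef1, Bcl11b, Runx1 and Myb, all higher, against 4.40% of all genes higher without overlap. In the second wave 8 values were positive and 2 negative, with a median of 0.29 (all genes -0.01). There 0 of the 10 passed against 0.224% of all genes, 4 had an unadjusted p under 0.05 (13.0% of all genes), and 1, Tcf12, lay below WT without overlap, against 4.62% of all genes (9.66% without overlap in either direction).

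Tcf7 was 15799, 13666, 23704 and 17687 in WT survival libraries 1 to 4. It was 23073, 18460.3 and 24349 in the first wave and 23639, 21484 and 19981 in the second, libraries 1 to 3 of each. WT library 3 was as high as the KO libraries and the other 3 WT libraries were below all of them. The log2 fold changes were 0.33 (SE 0.18, limma adjusted p = 0.626) and 0.32 (SE 0.18, limma adjusted p = 0.462). Lef1 was 8056, 7362, 10657 and 8322 in WT. It was 12661, 11957 and 11300.3 in the first wave and 12347, 8998 and 14205 in the second. All 3 first-wave libraries and 2 of 3 second-wave libraries exceeded every WT library, at log2 fold changes of 0.49 (SE 0.17, limma adjusted p = 0.617) and 0.45 (SE 0.17, limma adjusted p = 0.286). The Lef1 to Tcf7 ratio was 0.554 ± 0.0919 in the first wave (n = 3), 0.551 ± 0.148 in the second (n = 3) and 0.492 ± 0.0398 in WT (n = 4), which overlapped (exact two-sided permutation p = 0.286 and 0.600).

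Bcl11b was 2717, 3162, 7966 and 6736 in WT survival libraries 1 to 4. In the first wave it was 9083, 9158 and 8189, and in the second 7578, 8327 and 7422. WT libraries 1 and 2 held less than the other 8 libraries by a wide gap, and WT library 3 fell within the second-wave range. The first wave was at a log2 fold change of 0.92 against WT (SE 0.30, 95% interval 0.29 to 1.56, limma adjusted p = 0.617) and the second at 0.74 (SE 0.30, limma adjusted p = 0.313). Without WT survival libraries 1 and 2 the first-wave value was 0.26. With both waves combined against WT, 3 genes passed (0.0210%), and Bcl11b was at 0.83 (limma adjusted p = 0.283). It was the 1 member called when WT survival library 3 was left out (1.10, limma adjusted p = 0.0473, against 0.0473 to 0.961 over its alternatives), a setting in which 155 genes passed in place of 3.

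Runx1 was 2881, 2919.8, 4234 and 4079.8 in WT. It was 4599.8, 5092 and 4772 in the first wave and 4127, 4538 and 5108 in the second. WT libraries 1 and 2 were again the lowest, and the first wave lay above all WT libraries (0.47, SE 0.17, limma adjusted p = 0.617). Cbfb, its partner, which had fallen in the acute libraries, was 1434, 1228, 2514 and 1393 in WT. It was 2424, 2173 and 2503 in the first wave and 2973, 2749 and 2555 in the second. All KO libraries exceeded WT libraries 1, 2 and 4, while WT library 3 was among them.

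Myb was 7682, 6393, 7078 and 6512 in WT. It was 8614, 9546 and 10141 in the first wave and 7014, 7087 and 9391 in the second. Every first-wave library was above every WT library, the reverse of the order in the acute libraries, while 2 of 3 second-wave libraries lay inside the WT range. The first wave had a log2 fold change of 0.45 (SE 0.15, limma adjusted p = 0.617), which was 0.47 without WT libraries 1 and 2. The second-wave value was 0.17 (SE 0.15, limma adjusted p = 0.640).

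Tcf12 was the 1 gene below WT without overlap in the second wave. It was 13966, 14949, 12337 and 13922 in WT. It was 15246, 14160.2 and 13742 in the first wave and 9779.9, 10755 and 11479.9 in the second. The 3 second-wave libraries were below all 7 others, at a log2 fold change of -0.37 against WT (SE 0.13, limma adjusted p = 0.248) and -0.43 against the first wave (SE 0.13, limma adjusted p = 0.477). Tcf3 did not follow it. Tcf3 was 1162, 1312, 1693 and 1376 in WT, 1624, 1561 and 1561 in the first wave and 1807, 1439 and 1725 in the second, with overlapping groups and values of 0.20 (limma adjusted p = 0.737) and 0.26 (limma adjusted p = 0.521). The ratio of Tcf12 to Tcf3 was 6.51 ± 1.04 in the second wave (n = 3), below 9.09 ± 0.293 in the first (n = 3) without overlap, where 3 against 3 allows no exact permutation p under 0.1. In WT (n = 4) it was 10.2 ± 2.10, with library 3 inside the second-wave range (exact permutation p = 0.0857, 0.300 adjusted over 9 ratio tests).

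The Id to E-protein ratio, lower in the acute KO libraries, was 0.105 ± 0.0161 in the second wave (n = 3), 0.0809 ± 0.0234 in the first (n = 3) and 0.0545 ± 0.0242 in WT survival (n = 4). WT library 3, at 0.0886, overlapped both waves, and the exact two-sided permutation p was 0.0857 for the second wave and 0.200 for the first (0.300 and 0.360 adjusted over 9 ratio tests). Id2 was 549, 464, 848 and 541 in WT, 724, 773 and 1429 in the first wave and 1133, 856 and 951 in the second. In the second wave all 3 libraries were above WT, and in the first wave library 3 stood alone at the top.

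Ets1 was 10974, 11731, 16862 and 15238 in WT. It was 18197, 16721 and 17975 in the first wave and 14456, 12902 and 11983 in the second. The waves did not overlap (-0.43, SE 0.17, limma adjusted p = 0.680), and WT overlapped both. Between the waves 0 of the 10 genes passed, against 0.119% of all genes, and 2, Tcf12 and Ets1, did not overlap, both lower in the second wave, against 13.6% of all genes (7.29% lower). Ikzf1 was 10099, 9731, 12192 and 8943 in WT, 11121, 10052 and 10831 in the first wave and 12284, 11080.3 and 12197 in the second, with overlap throughout and log2 fold changes of 0.07 (limma adjusted p = 0.901) and 0.22 (limma adjusted p = 0.515). Gata3 was 305, 555, 902 and 268 in WT, 656, 709 and 648 in the first wave and 1090.2, 474 and 874 in the second. Its first-wave libraries were close together inside a broad WT range, at 0.58 (SE 0.37, limma adjusted p = 0.670), and its second-wave value was 0.77 (SE 0.37, limma adjusted p = 0.404).

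The positive survival values rested in part on WT survival libraries 1 and 2, which were among the 2 lowest of the 10 survival libraries for 7 and 8 of the 10 genes. Without both, the first-wave values were still all positive, but their median was 0.17 in place of 0.42, Tcf7 was at 0.09, Ets1 at 0.14 and Runx1 at 0.21. Lef1, Bcl11b, Runx1 and Myb still did not overlap the remaining 2 WT libraries, where 10.6% of all genes were higher without overlap. In the second wave the median without both was 0.12, and Tcf12 and Ets1 were below WT without overlap (10.4% of all genes). The neutrophil sums given above for these 2 libraries, and their low pan-T sums, moved with these values. B-cell markers were negative in the second wave in 8 of 8 genes tested (1 called, Pax5, median -1.39), with sums of 0.00253 to 0.00306% below 0.00422 to 0.00744% in WT without overlap, and highest in WT libraries 1 and 2. NK-cell sums were 0.00346 to 0.00618% in the second wave and 0.00655 to 0.00921% in WT (0 of 4 genes called). The part of these cells was not tested.

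**Figure D5:**
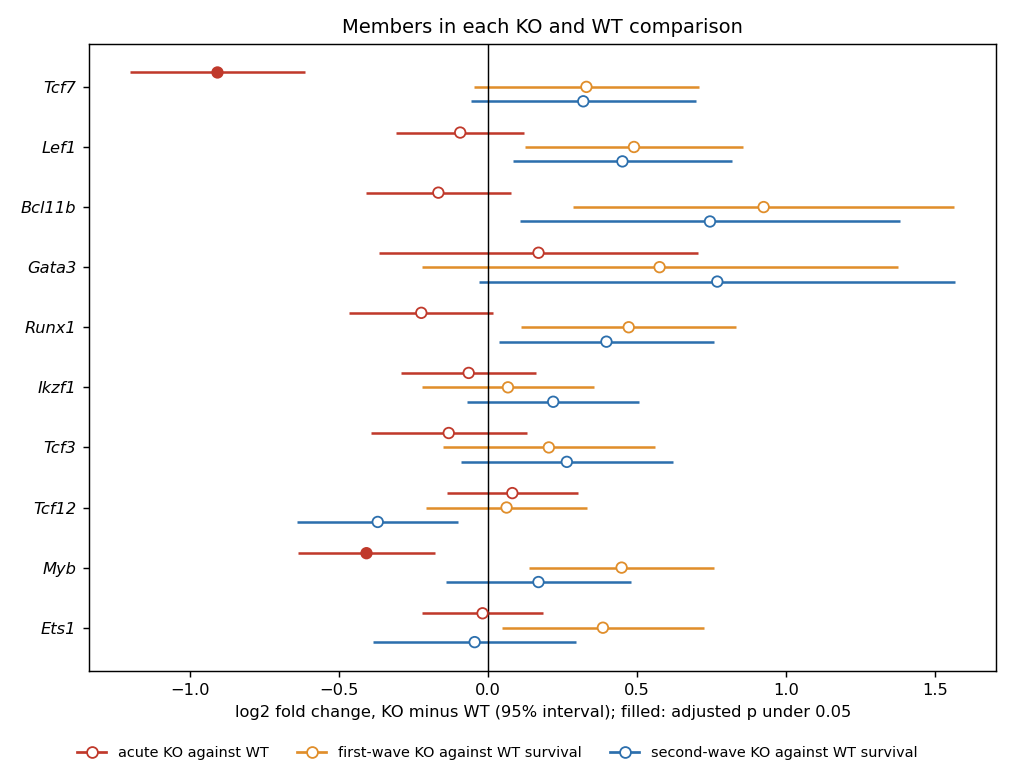
Log2 fold changes (KO minus WT) of the 10 genes with 95% intervals, for the acute, first-wave and second-wave comparisons; filled points have a limma adjusted p under 0.05. Tcf7 and Myb in the acute comparison are the 2 filled points, and the first-wave points all lie at or right of 0.06.

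In the survival comparisons the related lists showed few calls. Of 20 family relatives and 24 partners and inhibitors tested, 0 passed in either wave. Fli1, which had fallen in the acute libraries, was at 0.90 in the second wave (SE 0.27, limma adjusted p = 0.205), and Ets2 was at 1.15 in the first (SE 0.43, limma adjusted p = 0.617). Without WT survival libraries 1 and 2 these values were 0.35 and 0.27. Of 24 effector genes 0 passed, with 21 of 24 positive and a median of 0.22 in the first wave, led by Rag2 at 1.35 (SE 0.49) and Rag1 at 0.94 (SE 0.32, both limma adjusted p = 0.617). WT libraries 1 and 2 were the lowest of the 10 for both, and without them Rag2 was at 0.30 and Rag1 at 0.25. Against the first wave, 22 of 24 effector values were negative in the second wave, with a median of -0.29. Dntt was at -0.94 (SE 0.22, limma adjusted p = 0.185) without overlap between the waves, and it passed in 2 alternatives. Of 10 oncogenic factors 0 passed, and Myc was at 0.44 in each wave but at -0.19 in each without WT survival libraries 1 and 2. Of 7 Wnt feedback genes 1 passed. Ccnd1, the cyclin D1 gene, which is a target of many pathways besides Wnt, was 78.8, 63.8, 33.8 and 55.1 in WT, 80.5, 118 and 138 in the first wave and 722, 573 and 324 in the second. Every second-wave library was above every other survival library, at a log2 fold change of 3.18 against WT (SE 0.36, limma adjusted p = 0.00188) and 2.21 against the first wave (SE 0.39, limma adjusted p = 0.0444). The call against WT held in 22 of 22 alternatives, while that against the first wave held in 10 of 22 (adjusted p = 0.0239 to 0.319) and was lost under pan-T scaling, without trend, with the length, GC and abundance trend removed and with the replicate block. It was also lost without first-wave library 1, 2 or 3, second-wave library 1 or 2, or WT survival library 2 or 4. Axin2, a more direct Wnt readout, was at 0.46 in the first wave (SE 0.25, limma adjusted p = 0.626). In the second wave, where Ccnd1 was called, Axin2 was 322, 307 and 533, which overlapped WT at 283, 425, 335 and 290.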

How the data were processed

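RNA from leukemic spleens was sequenced in 18 libraries. Per the labels' protocols, spleens were pressed through a 40 µm filter, red cells were removed by lysis, and 1 µg of total RNA went into each strand-specific library. The authors deposited 1 table of the 8 acute and 1 of the 10 survival libraries. Their deposited values are a signal, namely gene counts estimated with kallisto 0.44.0 on GRCm38 and divided by DESeq size factors, per the submitters' processing notes. For the transcript annotation and strand setting, the labels give nothing (not given in the sources used here). Because the tables were normalized separately, tests stayed within a table. Between 38.1% and 63.6% of values under 8 were whole multiples of the smallest step (tolerance 0.02). Whole reads could therefore not be recovered, and no count model was used. No 2 libraries of a group held identical values above 0.

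The test ran on log2(value + 1) for genes whose mean in a table was 10 or more, by limma 3.58.1 (eBayes with trend, R 4.3.3), with Benjamini-Hochberg adjustment over all 14184 acute or 14286 survival genes tested, at a threshold of 0.05. Fold changes on this scale understate the change of low genes. The acute fit held 8 libraries, and the survival fit held all 10 with 1 estimate of the spread. Ratios within libraries were tested with exact two-sided permutation tests. The procedure was tested on simulated data. Coordinates and lengths came from GENCODE M21. Gata3 shares 77 bases of exon with 9230102O04Rik, which was at most 21.8 normalized counts, and Gata3, Lef1, Myb and Runx1 overlap antisense genes that were not used here. The members, lists and tests were chosen with earlier results of these data known. All 10 members are named. Of the other lists, up to 4 genes past the threshold with the smallest adjusted p, or up to 2 with the largest change and a mean of at least 100 where none passed, could be named. Some genes that this rule would name are not reported here. Marker lists are given as sums and counts.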

Additional observations from a re-analysis of the deposited data

Results flagged for a closer look

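Tcf3 in WT acute replicate 3 was 891.0 normalized counts, set apart below the other 3 WT acute libraries, which lay at 1019 to 1027. The Lef1 to Tcf7 ratio in WT acute replicate 2 was 0.615, set apart above the other 3 WT acute libraries at 0.535 to 0.548, and below every KO acute library. These were 2 of 39 groups of 4 libraries looked at for a sample with a wide gap to the rest, and chance alone sets a sample apart in about 1 in 20 such groups.

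Myb lay in opposite directions in the tables. Every KO acute library was below every WT acute library (log2 fold change -0.41, limma adjusted p = 0.0253), as for 11.0% of all genes. Every first-wave library was above every WT survival library (0.45, limma adjusted p = 0.617), as for 4.40% of all genes. The acute call held in 8 of 19 alternatives, and the first-wave value did not pass. The difference between the acute and first-wave effects was not tested, and the tables differ in the time of treatment and of sampling.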

How the results depend on the processing

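Over 19 alternatives the 10 members gave 190 acute values: 161 kept their direction and side of the threshold, 17 changed sign without being called (4 members), 11 lost a call, 1 gained one, and 0 called values reversed. The counts that moved most were as follows. In the acute comparison, 693 genes passed with eBayes without trend (1794 as reported), 903 without KO acute libraries 1 and 2, and 983 to 1634 with 1 library left out. The number of members called was 1 under pan-T scaling, without trend, with the length, GC and abundance trend removed and without KO acute libraries 1 and 2, and 1 to 2 with 1 library left out. In the first wave, 1 gene passed with a pseudocount of 5, with no filter, with quantile normalization and with robust eBayes, 3 passed without WT survival libraries 1 and 2, and 0 to 3 with 1 library left out (0 as reported). In the second wave (32 as reported), 21 passed under pan-T scaling, 14 without trend, 14 without WT survival libraries 1 and 2, 13 in a fit of only the groups compared, and 15 to 140 with 1 library left out, the highest without WT survival replicate 3. Between the waves (17 as reported), 3 passed under pan-T scaling, 1 without trend, 34 without WT survival libraries 1 and 2, and 1 to 38 with 1 library left out, the highest without second-wave replicate 3. For both waves against WT (3 as reported), 5 passed without WT survival libraries 1 and 2 and 2 to 155 with 1 library left out, where 0 to 1 members were called. With 1 library left out, the acute Lef1 to Tcf7 difference ranged from 0.74 to 0.90 and that of the Id to E-protein ratio from -0.80 to -0.60. Both lost the call, with an adjusted permutation p above 0.05, without WT acute replicate 4 (0.80 and -0.67). The same held without KO acute libraries 1 and 2 (0.61 and -0.98). Each adjusted p depends on all 3 acute ratios, and the last setting has too few libraries to pass. Other causes were not tested.

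Libraries that share a replicate number did not deviate together (Pearson r across genes -0.03 to 0.09), so the numbers were not taken as pairs. With the replicate block, 1391 genes and 2 members passed in the acute comparison (Myb adjusted p = 0.0441) and 2 genes between the waves. With the replicate block and the trend removed, the counts were 974 genes and 1 member in the acute comparison, 2 genes between the waves and 1 gene for both waves.

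With 3 or 4 libraries a group, a difference the size of most survival values cannot pass among 14286 genes unless libraries agree closely, so the missing calls do not show that the waves and WT were alike.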
